A study of Homo sapiens with 6 samples.

Results

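DDIT4 and 9 further genes listed with the integrated stress response were described in a human B cell leukemia line. The 9 are DDIT3, ATF3, ATF4, ATF5, TRIB3, SESN1, SESN2, CHAC1 and ASNS. The line converts into macrophage-like cells, and 3 conditions of it were compared. DDIT4 was chosen because its level after CTCF depletion was far below that of the control cells, and the other 9 genes were listed by their role, to ask whether other stress genes share that difference. All 10 symbols were found among the 30017 genes of the raw count table, and all 10 were among the 14758 genes tested. The DDIT4 difference between CTCF-depleted and control cells is therefore the value the set was chosen by, and it is given as a description without a test.

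The integrated stress response begins when 1 of several kinases, each tuned to a different stress, phosphorylates the translation initiation factor eIF2. General protein synthesis then drops while the ATF4 message is translated more, so that ATF4 is controlled largely at translation and its messenger RNA is a poor measure of its activity. ATF4 protein, paired with C/EBP factors, binds composite elements in the promoters of genes for amino acid supply, glutathione handling and cell death. DDIT4, also called REDD1, restrains the growth kinase complex mTORC1 through the TSC complex, and it responds to hypoxia, p53 and glucocorticoids as well as to ATF4.

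RNA-seq was measured in BLaER1-CTCF-mAID cells, labelled as a BLaER subclone carrying CTCF-AID, in which CTCF is fused to an auxin-inducible degron. The 3 groups of 2 libraries were cells without transdifferentiation factors at 0 h, cells at 96 h after 17β-estradiol, IL-3 and CSF-1 (control), and cells at 96 h after the same factors together with auxin (IAA), which triggers breakdown of CTCF protein. Estradiol activates a C/EBPα fusion protein, which drives the conversion, and all 6 libraries share this background and the degron allele. A line without the degron treated with IAA was not analysed here, so effects of IAA and of CTCF loss cannot be told apart, and every library comes from 1 engineered line.

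Total counts lay between 9273470 and 12718780 per library, and the counting error of every level below is limited by these totals. Because the degron breaks down protein, the CTCF transcript says only that the message was still made. Levels are in CPM, counts scaled to the library total after TMM normalization, and the mean CTCF level was 222 CPM at 0 h, 177 in control cells and 190 with CTCF depleted. All 8 B cell markers were called lower and all 8 macrophage markers were called higher in control cells than at 0 h. The summed level of the B cell markers was 2350 to 2360 CPM at 0 h, 419 to 429 in control and 437 to 451 in CTCF-depleted libraries, and that of the macrophage markers 35.1 to 39.1, 4970 to 5220 and 4840 to 4880, with FCGR1A the 1 marker without a count at 0 h. Between CTCF-depleted and control cells 7 of the 8 B cell markers were lower and 1 higher, and 5 of the 8 macrophage markers were higher and 3 lower. The sums went the other way, because CD22 went from 34.8 CPM in control to 96.6 with CTCF depleted and LYZ from 4530 to 4160. In bulk RNA, fewer cells of a type and less RNA per cell cannot be told apart.

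Promoters of DDIT4, ASNS and CHAC1 are shown because these genes had the clearest differences between CTCF-depleted and control cells, DDIT4 lower and the other two higher. Each is the 250 bases before the annotated start in RefSeq (GRCh38.p14), 5′ to 3′ on the strand of the gene. Capitals mark ACGTG, the core of the hypoxia response element, in DDIT4, and the C/EBP-ATF response element (CARE) TGATGNAA or its reverse complement in ASNS and CHAC1. The DDIT4 window is chr10:72273674-72273923 on the plus strand, the ASNS window chr7:97872409-97872658 on the minus strand and the CHAC1 window chr15:40953221-40953470 on the plus strand. The first base of these genes in GENCODE 44 is 72273919, 97872542 and 40952962, and the RefSeq start lies downstream of it for each. The DDIT4 window lies within the GENCODE 44 gene only in its last bases, the ASNS window partly and the CHAC1 window wholly. The marked CARE of ASNS and that of CHAC1 each lie within the GENCODE 44 gene.
DDIT4: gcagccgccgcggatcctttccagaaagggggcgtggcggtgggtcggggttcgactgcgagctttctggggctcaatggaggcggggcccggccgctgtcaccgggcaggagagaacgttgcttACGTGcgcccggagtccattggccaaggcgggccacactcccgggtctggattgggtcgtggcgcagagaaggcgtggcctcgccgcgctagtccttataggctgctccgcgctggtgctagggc
ASNS: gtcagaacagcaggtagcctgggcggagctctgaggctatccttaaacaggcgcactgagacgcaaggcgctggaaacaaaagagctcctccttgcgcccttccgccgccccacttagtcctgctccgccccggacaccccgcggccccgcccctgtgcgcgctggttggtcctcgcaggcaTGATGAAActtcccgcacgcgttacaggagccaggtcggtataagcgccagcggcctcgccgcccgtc
CHAC1: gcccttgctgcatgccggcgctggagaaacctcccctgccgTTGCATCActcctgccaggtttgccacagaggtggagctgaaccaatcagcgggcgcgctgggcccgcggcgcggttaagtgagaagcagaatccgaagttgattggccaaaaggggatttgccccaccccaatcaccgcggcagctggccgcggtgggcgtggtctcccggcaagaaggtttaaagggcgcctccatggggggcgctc

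All 10 genes had a RefSeq promoter window of 300 bases, 250 before and 50 after the start, in 20 entries. On either strand CARE was present for ASNS at -68, for CHAC1 at -209 on the opposite strand and for 1 of the ATF3 entries at -191, with positions counted from the start, and it occurs in 3.62% of 35116 RefSeq promoter windows of that length. ACGTG was present for DDIT4 at -125 and for ATF4, against 21.4% of all windows. The cAMP response element TGACGTCA, found in 1.85% of windows, and the core CTCF motif, searched by name and found in 0.47%, were in no window of the 10 genes. No window of the 10 genes held both CARE and ACGTG. A match only says that the letters are there, and no match says only that they are not in this window.

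DDIT4 (chromosome 10, 72273919 to 72276036, plus strand, hg38; 3 exons) rose strongly during conversion and was less abundant when CTCF was depleted. Its level was 22.8 and 18.2 CPM at 0 h, 331 and 328 CPM in control cells, and 112 and 120 CPM where CTCF was depleted. No library of 1 group overlapped another, and the CTCF-depleted cells lay between the start and the control. In control cells DDIT4 was 16.3-fold higher than at 0 h (log2 fold change 4.03, SE 0.07; adjusted p 5.18e-48, edgeR's quasi-likelihood test). With CTCF depleted it still rose, 5.73-fold (log2 fold change 2.52, SE 0.08; adjusted p 3.9e-36, same test). Between the groups at 96 h the level was 2.84-fold lower with CTCF depleted, 116 ± 6.11 against 329 ± 2.6 CPM (SD, n = 2; log2 fold change -1.51, SE 0.06), the difference by which the gene was chosen. Of the 14758 genes tested, 269 had a lower log2 fold change than DDIT4 in that comparison. The 3 comparisons share libraries with one another, so the values are given side by side and are not independent of one another.

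None of the other 9 stress genes was called lower together with DDIT4, by edgeR or by DESeq2. At an unadjusted p below 0.05 in edgeR, 0 of the 9 were lower and 5 higher. Called genes had an adjusted p below 0.01 and an absolute log2 fold change over 0.6. Between CTCF-depleted and control cells 7.03% of all genes tested were called lower, and DDIT4, chosen by this difference, is left out of the count. In the higher direction 3 of the 9 were called, ATF3, CHAC1 and ASNS, where 5.41% of all genes were. The libraries of the 2 groups did not overlap for 8 of the 10 genes, 5 higher and 3 lower, against 67.9% of all genes tested. Since this comparison chose DDIT4 and the other 9 genes were listed with its results known, nothing is read from these shares. The median log2 fold change was 0.20 over the 10 genes and 0.28 over the 9 without DDIT4, beside -0.03 over all genes tested.

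ATF4, the central transcription factor of the response, was the most abundant of the 10 per kilobase at 0 h and in CTCF-depleted cells. It is on chromosome 22 (39519695 to 39522683, plus strand). Its level was 356 and 329 CPM at 0 h, 186 and 185 in control and 226 and 223 in CTCF-depleted libraries. The 3 groups did not overlap: ATF4 was highest at 0 h and lowest in control cells. It fell by 0.89 on the log2 scale in control cells (SE 0.05; adjusted p 6.41e-24, edgeR's quasi-likelihood test), and the difference between CTCF-depleted and control cells was 0.28 (SE 0.05; adjusted p 6.89e-06), below the fold change threshold. From 0 h to CTCF-depleted cells the log2 fold change was -0.61 (SE 0.05; adjusted p 2.91e-17), just past that threshold. It stood at -0.53 without 0 h replicate 1, at -0.57 without CTCF-depleted replicate 2 and at -0.59 with at least 10 counts in every library, and was no longer called in any of these.

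ATF5, a related bZIP factor that is also controlled at translation, had its levels in the same order as ATF4, with larger differences. Its level was 105 and 103 CPM at 0 h, 22.2 and 21.2 in control and 26.6 and 30.8 in CTCF-depleted libraries, again without overlap between groups. ATF5 fell by 2.25 on the log2 scale in control cells (SE 0.08; adjusted p 1.19e-31) and by 1.85 in CTCF-depleted cells (SE 0.08; adjusted p 1.95e-28), both in edgeR's quasi-likelihood test. CTCF-depleted cells differed from control cells by 0.40 (SE 0.10; adjusted p 0.000786), below the fold change threshold. ATF5 lies on chromosome 19 (49928702 to 49933935, plus strand), where its exons overlap those of IL4I1 and NUP62 on the other strand and the microRNA gene MIR4751 on its own strand. The libraries were stranded, but the strand setting of the counting is not given in the sources used here, so reads of ATF5 and of its overlapping partners may not be fully separated.

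ATF3, a bZIP factor induced by many stresses that often acts as a repressor, was the 1 factor among the 10 that was called higher with CTCF depleted. Counts were low, 40 and 69 at 0 h, 130 and 83 in control and 171 and 177 in CTCF-depleted libraries. The control libraries differed most from each other, at 11.5 and 7.69 CPM, and both lay below the CTCF-depleted libraries at 15.8 and 16.3. The log2 fold change was 0.74 (SE 0.16; adjusted p 0.000163, edgeR's quasi-likelihood test). Without control replicate 2 it was 0.52 with adjusted p 0.0294, and in DESeq2 it was 0.76 with adjusted p 0.0203, so the call rests on that library and on the tool. ATF3 rose in control cells by a log2 fold change of 1.02 (adjusted p 7.07e-06), which became 0.67 with adjusted p 0.0141 without control replicate 1. From 0 h to CTCF-depleted cells it rose by 1.77 (SE 0.18; adjusted p 6.83e-13). It lies on chromosome 1 (212565334 to 212620777, plus strand).

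DDIT3 encodes CHOP, the factor linked to cell death under prolonged stress, and it did not change with CTCF depletion past the thresholds. Its level was 5.67 and 5.33 CPM at 0 h, 14.0 and 13.0 in control and 12.8 and 11.3 in CTCF-depleted libraries. Both groups at 96 h lay above 0 h, and the CTCF-depleted libraries lay just under the control libraries. DDIT3 rose in control cells by a log2 fold change of 1.30 (SE 0.17; adjusted p 1.41e-09) and in CTCF-depleted cells by 1.14 (SE 0.18; adjusted p 6.9e-08). The difference between the groups at 96 h was -0.16 (SE 0.15; adjusted p 0.422 in edgeR's quasi-likelihood test). DDIT3 is on chromosome 12 (57516588 to 57521737, minus strand), where its exons overlap MARS1 on the other strand and a further protein-coding model on its own strand, so its counts carry the same doubt as those of ATF5.

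TRIB3, a pseudokinase that is induced by ATF4 and dampens its activity, was called in none of the 3 comparisons, though at an unadjusted p below 0.05 both comparisons with 0 h passed. It had 15.2 and 14.0 CPM at 0 h, 20.4 and 17.5 in control and 20.1 and 21.1 in CTCF-depleted libraries. Control and CTCF-depleted libraries overlapped, with a log2 fold change of 0.12 (SE 0.12; adjusted p 0.474, edgeR's quasi-likelihood test). Against 0 h it was 0.38 in control (SE 0.13; adjusted p 0.00568) and 0.50 in CTCF-depleted cells (SE 0.13; adjusted p 0.000315), both below the fold change threshold. TRIB3 lies on chromosome 20 (362835 to 397559, plus strand).

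CHAC1, which degrades glutathione and is a sensitive ATF4 target, had the largest difference in the higher direction among the 10 genes. Its counts were 63 and 64 at 0 h, 27 and 27 in control and 81 and 67 in CTCF-depleted libraries. The control libraries were the lowest of all, and no control library overlapped another group. CHAC1 fell in control cells (log2 fold change -1.18, SE 0.26; adjusted p 6.17e-05) and was 2.79-fold higher with CTCF depleted than in control (log2 fold change 1.48, SE 0.25; adjusted p 2.63e-06, edgeR's quasi-likelihood test). CTCF-depleted and 0 h libraries overlapped, at 7.50 and 6.17 against 6.50 and 4.80 CPM (log2 fold change 0.30, SE 0.21; adjusted p 0.197). The log2 fold change between the groups at 96 h stayed between 1.37 and 1.65 in the alternatives, so it did not rest on 1 library despite the low counts. CHAC1 is on chromosome 15 (40952962 to 40956512, plus strand).

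ASNS, which makes asparagine and is a classical target of the amino acid arm of the response, was also higher with CTCF depleted than in control cells. It had 65.1 and 58.2 CPM at 0 h, 19.0 and 21.3 in control and 33.7 and 37.3 in CTCF-depleted libraries. The 3 groups did not overlap, and CTCF-depleted cells lay between control cells and the start. ASNS fell by 1.61 on the log2 scale in control cells (SE 0.09; adjusted p 9.96e-24) and by 0.79 in CTCF-depleted cells (SE 0.08; adjusted p 6.26e-13). It was 1.76-fold higher in CTCF-depleted than in control cells (log2 fold change 0.82, SE 0.10; adjusted p 3.19e-10, edgeR's quasi-likelihood test). ASNS is on chromosome 7 (97851677 to 97872542, minus strand) and a long noncoding RNA on the same strand overlaps its exons.

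SESN1 and SESN2 encode sestrins, stress proteins that hold back mTORC1 by another route than DDIT4, and neither changed with CTCF depletion past the thresholds. SESN1 had 17.1 and 15.5 CPM at 0 h, 118 and 111 in control and 110 and 108 in CTCF-depleted libraries. The groups at 96 h lay close together and far above 0 h, with a rise in control cells of 2.82 on the log2 scale (SE 0.08; adjusted p 1.73e-36) and in CTCF-depleted cells of 2.75 (SE 0.09; adjusted p 6.76e-36). The difference between them was -0.07 (SE 0.07; adjusted p 0.462, edgeR's quasi-likelihood test), and 0.00 without control replicate 1. SESN2 had 12.8 and 12.0 CPM at 0 h, 48.1 and 46.6 in control and 55.9 and 46.7 in CTCF-depleted libraries. Control and CTCF-depleted libraries overlapped for SESN2, and the difference was 0.12 (SE 0.08; adjusted p 0.273). SESN2 rose in control cells by 1.94 (SE 0.10; adjusted p 7.62e-25) and in CTCF-depleted cells by 2.05 (SE 0.10; adjusted p 3e-26). SESN1 lies on chromosome 6 (108984309 to 109094846, minus strand), with a long noncoding RNA over its exons on the other strand, and SESN2 on chromosome 1 (28259518 to 28282491, plus strand).

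**Figure D1:**
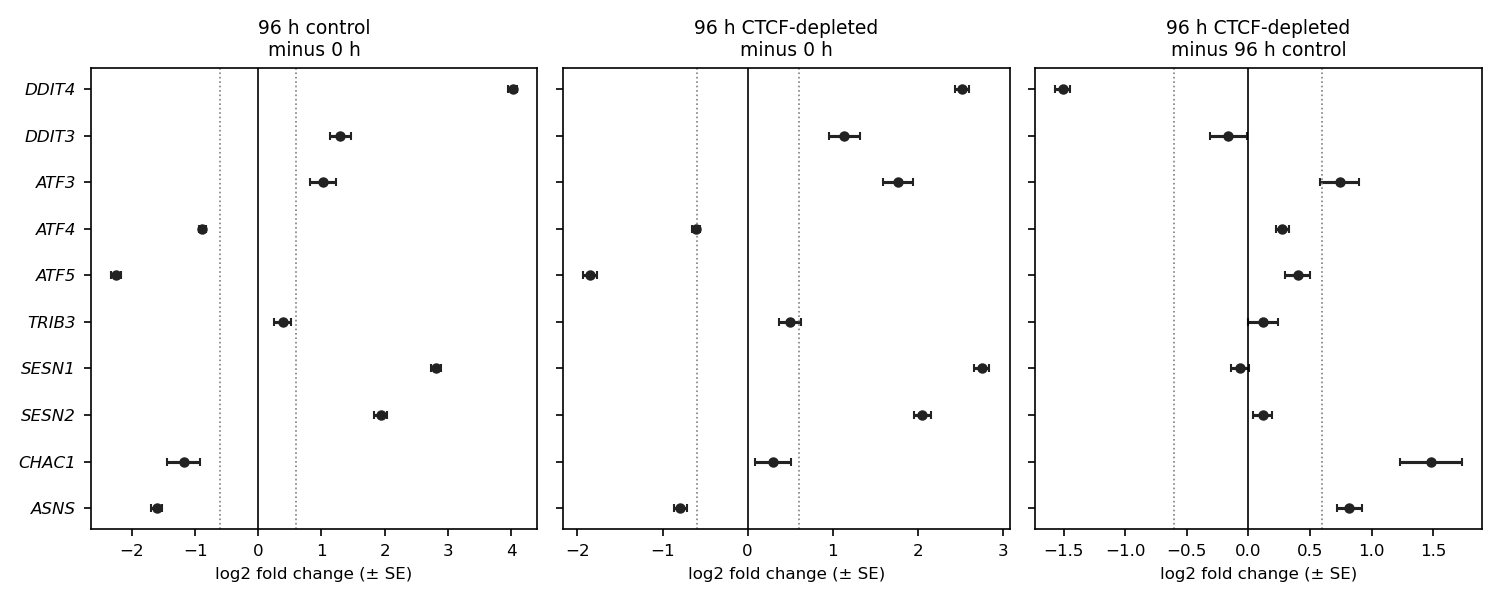
Log2 fold change with its standard error for each gene (horizontal axis, with its own range in each panel) for control minus 0 h, CTCF-depleted minus 0 h and CTCF-depleted minus control; dotted lines mark 0.6 in either direction. In the right panel DDIT4 stands at -1.51 with CHAC1 at 1.48, ASNS at 0.82 and ATF3 at 0.74 on the other side.

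Over the conversion itself, the 10 genes went both ways. In control cells against 0 h 5 of the 10 were called higher (DDIT4, DDIT3, ATF3, SESN1 and SESN2), where 25.4% of all genes tested were, and 4 were called lower (ATF4, ATF5, CHAC1 and ASNS), where 22.9% were. In CTCF-depleted cells against 0 h the same 5 genes were called higher, against 27.2% of all genes, and ATF4, ATF5 and ASNS were called lower, against 25.2%. Across the 10 genes the median log2 fold change against 0 h was 0.70 for control cells and 0.82 with CTCF depleted, beside 0.02 for all genes tested in both. B cell and macrophage markers changed over the same interval, as given above, and their part in these values was not tested.

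Set beside each other per length, DDIT4 was the fourth of the 10 genes at 0 h, the first in control cells and the second with CTCF depleted. In CPM per kilobase of the canonical transcript in GENCODE 44, the level at 0 h was highest for ATF4 at 242, followed by ATF5 at 51.7, ASNS at 25.8 and DDIT4 at 11.8. TRIB3 at 6.19 and DDIT3 at 6.09 did not differ beyond their spread, nor did CHAC1 at 3.72 and SESN2 at 3.58, and SESN1 at 2.88 and ATF3 at 2.40 came last. In control cells DDIT4 led at 189 CPM per kilobase, above ATF4 at 131, and the remaining 8 genes were at 20.2 or below. There ASNS at 8.44 and TRIB3 at 8.04 overlapped, and CHAC1 was lowest at 1.61. In CTCF-depleted cells ATF4 at 158 was again above DDIT4 at 66.5, and ASNS, SESN2, ATF5 and DDIT3, between 13.3 and 14.9, could not be separated in a chain of overlapping libraries.

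The genes whose pattern over the 6 libraries was most like that of DDIT4 were not stress genes of this list. Likeness was the Euclidean distance between centred log2 CPM values (prior count 2), over all genes tested, and it includes the libraries that chose DDIT4. The 5 nearest genes were GPR98 at a distance of 0.18, NRP1 at 0.27, RNASE3 at 0.34, NUAK2 at 0.40 and CXCL16 at 0.46. GPR98 is the older symbol of the adhesion receptor ADGRV1 and had 14 and 16 counts at 0 h, 241 and 239 in control and 77 and 92 in CTCF-depleted libraries. NRP1, the receptor neuropilin 1, lies on chromosome 10 like DDIT4 and had 41 and 55, 716 and 684, and 223 and 269 counts. Their log2 fold changes between CTCF-depleted and control cells were -1.47 and -1.48. RNASE3, which has a close paralog whose reads may be shared, and the kinase NUAK2 had no count at 0 h and at most 32 counts elsewhere. CXCL16 had 2 and 1 counts at 0 h. In control cells against 0 h RNASE3, NUAK2 and CXCL16 had log2 fold changes of 7.72, 7.95 and 5.15, beside 4.03 for DDIT4. With so few counts at 0 h, their small distances depend on the prior count of 2. Among the 10 genes, SESN1 was nearest to DDIT4 at rank 318 (distance 1.55), followed by SESN2 at rank 985 and DDIT3 at rank 1732.

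Other genes of the stress pathways were taken from 9 lists of 195 genes without the 10. Of the 186 listed genes tested, 12 were called lower and 8 higher with CTCF depleted, shares near the 7.03% and 5.41% of all genes tested. With an adjusted p under 0.05 at any fold change 58 were lower and 34 higher, beside 3330 and 2375 of all 14758 genes tested. Counts at an unadjusted p below 0.05 are given without a share of all genes and are not compared with one. The list of eIF2 kinases, phosphatases and exchange factor also held the eIF2 subunits EIF2S1, EIF2S2 and EIF2S3, and GCN1, DNAJC3 and DELE1. None of its 17 tested genes was called in either direction by edgeR or DESeq2, with a median log2 fold change of 0.09. At an unadjusted p below 0.05, 2 were lower and 5 higher. Over the conversion 4 of the 17 were called lower in control cells and 3 higher, beside 22.9% and 25.4% of all genes, among them the kinase EIF2AK3 (-1.27) and the phosphatase subunit PPP1R15A (1.25), which with CTCF depleted stood at 0.01 and -0.12 of control on the log2 scale.

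Genes of amino acid supply, the classical output of ATF4, gave 2 of 19 called higher and 1 called lower with CTCF depleted, beside 5.41% and 7.03% of all genes, with a median of -0.01. The glycine transporter gene SLC6A9 had 92 and 112 counts at 0 h, 19 and 11 in control and 87 and 54 in CTCF-depleted libraries. The control libraries were the lowest, and the log2 fold change between the groups at 96 h was 2.26 (SE 0.30; adjusted p 6.83e-09, edgeR's quasi-likelihood test). PSAT1, an enzyme of serine synthesis, had 383 and 390 counts in control and 633 and 580 in CTCF-depleted libraries (log2 fold change 0.68; adjusted p 7.36e-10). GPT2, a mitochondrial alanine aminotransferase, went the other way with 504 and 466 against 247 and 255 counts (-0.92; adjusted p 6.84e-13). Over the conversion 12 of the 19 genes were called lower in control cells (22.9% of all genes) and 1 higher (25.4%), with a median of -0.88, including CBS (-3.65), SLC6A9 (-2.70), PYCR1 (-1.97) and PSAT1 (-1.84). Of these, PYCR1 stood at -0.12 between CTCF-depleted and control cells. CBS stood at 0.03 (SE 0.73), with 4 and 5 counts in control and 7 and 2 in CTCF-depleted libraries, too few to tell whether it differed.

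The list of aminoacyl-tRNA synthetases, which charge tRNAs and include several ATF4 targets, also held XPOT, which is not a synthetase. With CTCF depleted 7.03% of all genes tested were called lower and 5.41% higher in edgeR. None of the 19 listed genes was called in edgeR or DESeq2, with a median of 0.03, and nothing is read from that in so short a list. At an unadjusted p below 0.05, 3 of them were lower and 7 higher. In control cells against 0 h 7 of the 19 were called lower, beside 22.9% of all genes, with AARS1 at -1.38 and IARS1 at -1.13. WARS1 at 2.16 was the 1 gene called higher, beside 25.4% of all genes. Among 20 genes of the unfolded protein response 4 were lower and 4 higher with CTCF depleted at an unadjusted p below 0.05 in edgeR. DESeq2 called 0 lower and 1 higher. The sensor kinase ERN1 was the 1 gene called by edgeR, higher with CTCF depleted, where 5.41% of all genes were called higher and 7.03% lower. It had 450 and 467 counts in control and 733 and 706 in CTCF-depleted libraries (log2 fold change 0.68; adjusted p 7.57e-11, edgeR's quasi-likelihood test). The median of that list was 0.05, and over the conversion 5 of its genes were called lower and 5 higher in control cells, beside 22.9% and 25.4% of all genes.

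Among bZIP partners and further stress effectors 3 of 21 genes were called lower and 1 higher with CTCF depleted, beside 7.03% and 5.41% of all genes, with a median of -0.19. CEBPD, a C/EBP factor, had 1 and 3 counts at 0 h, 434 and 419 in control and 148 and 135 in CTCF-depleted libraries. Its groups at 96 h did not overlap, and the log2 fold change was -1.56 (SE 0.12; adjusted p 9.7e-17, edgeR's quasi-likelihood test). VLDLR, a lipoprotein receptor, was lower by a log2 fold change of -0.85 (adjusted p 1.44e-12). BBC3, the cell death gene PUMA, was at -0.63 (adjusted p 1.36e-05), and that call was lost at -0.49 without control replicate 1, at -0.49 without CTCF-depleted replicate 1, and at -0.60 both with no filter on low counts and in a fit of the 4 libraries compared. TRIB2, a relative of TRIB3, had 558 and 556 counts in control and 1303 and 1226 in CTCF-depleted libraries (1.21; adjusted p 2.26e-23). In control cells against 0 h 11 of the 21 were called higher and 3 lower, beside 25.4% and 22.9% of all genes. NUPR1, GDF15, FGF21 and DDIT4L had too few counts to be tested, and the DDIT4 relative DDIT4L had at most 1 count in any library.

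DDIT4 also responds to hypoxia, p53 and glucocorticoids, and genes of these pathways were compared in the same way. Counted with the targets are regulators, HIF1A and EPAS1 on the hypoxia list and NR3C1, FOXO1 and FOXO3 on the glucocorticoid and FOXO list. Of 18 hypoxia targets 4 were called lower and 1 higher with CTCF depleted, beside 7.03% and 5.41% of all genes, with a median of -0.25; DESeq2 called 2 lower and 0 higher. PDK1, which limits entry of pyruvate into mitochondria, had 597 and 571 counts in control and 295 and 308 in CTCF-depleted libraries (log2 fold change -0.92; adjusted p 9.62e-14, edgeR's quasi-likelihood test). KDM3A, a histone demethylase, was at -0.70 (adjusted p 1.93e-13), or -0.58 and no longer called without CTCF-depleted replicate 2. BNIP3 at -0.84 and ANKRD37 at -1.81 had lower counts, and the BNIP3 call was lost in DESeq2 (adjusted p 0.0557), as was that of ANKRD37 (adjusted p 0.0444), which was also lost without control replicate 1 (-1.35; adjusted p 0.0917) or CTCF-depleted replicate 2 (-1.32; adjusted p 0.057). PFKFB4, a regulator of glycolysis, was called higher at 0.95 (adjusted p 5.47e-10) but not in DESeq2 (adjusted p 0.052). VEGFA, the angiogenic factor, stood at -0.24 with CTCF depleted after a rise of 3.41 in control cells. In control cells against 0 h edgeR called 7 of the 18 higher and 0 lower, beside 25.4% and 22.9% of all genes. DESeq2 called 6 higher and 0 lower. At an unadjusted p below 0.05 in edgeR, 12 were higher and 2 lower over the conversion.

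Of 19 p53 targets 2 were called lower and 1 higher with CTCF depleted, beside 7.03% and 5.41% of all genes. CDKN1A, the cell cycle inhibitor p21, had 3568 and 3519 counts in control and 2018 and 2089 in CTCF-depleted libraries (log2 fold change -0.76; adjusted p 6.69e-19, edgeR's quasi-likelihood test). TP53I3 at -0.93 (adjusted p 0.00726) had at most 66 counts, and its call was lost in DESeq2 (adjusted p 0.169) and without each of the 4 libraries compared in turn, the highest adjusted p being 0.226 without control replicate 1. PLK2, a stress-responsive kinase, rose from 387 and 337 to 1427 and 1285 counts (1.94; adjusted p 1.54e-27). Of 16 glucocorticoid and FOXO targets 1 was called lower and 0 higher in edgeR, beside 7.03% and 5.41% of all genes. The median was -0.24, and DESeq2 also called 1 lower and 0 higher. Before adjustment, edgeR gave 9 of these genes a p under 0.05 in the lower direction and 2 in the other. TSC22D3, known as GILZ, had 461 and 441 counts in control and 222 and 266 in CTCF-depleted libraries (-0.85; adjusted p 8.03e-10). In control cells against 0 h 10 of the 19 p53 targets were called higher and 1 lower, and 10 of the 16 glucocorticoid and FOXO targets were called higher and 2 lower, beside 25.4% and 22.9% of all genes.

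The mTORC1 pathway, which DDIT4 and the sestrins restrain, had 1 of 37 genes called lower and 2 higher with CTCF depleted, beside 7.03% and 5.41% of all genes, with a median of -0.02. All 3 belong to the amino acid sensing branch. CASTOR1, the arginine sensor, had 26 and 27 counts in control and 68 and 90 in CTCF-depleted libraries (log2 fold change 1.60; adjusted p 1.68e-06, edgeR's quasi-likelihood test). CASTOR2 was at -0.90 (adjusted p 1.7e-05), and its reads may be shared with a near-identical copy. NPRL2, a subunit of the complex that inhibits the pathway, was at 0.71 (adjusted p 0.000226) but was not called in DESeq2 (adjusted p 0.0142). In control cells against 0 h 3 of the 37 were called lower and 5 higher, beside 22.9% and 25.4% of all genes. Among the cell markers, CD22 (1.47) and ITGAM (1.15) were called higher with CTCF depleted and VPREB1 (-0.89) and MPEG1 (-1.11) lower, 1 in each direction among 8 B cell and 8 macrophage markers, and the part of these in the stress genes was not tested. The MPEG1 call was lost in DESeq2 (adjusted p 0.0624) and without control replicate 2 (adjusted p 0.0439) or CTCF-depleted replicate 1 (adjusted p 0.0188) or 2 (adjusted p 0.0108).

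**Figure D2:**
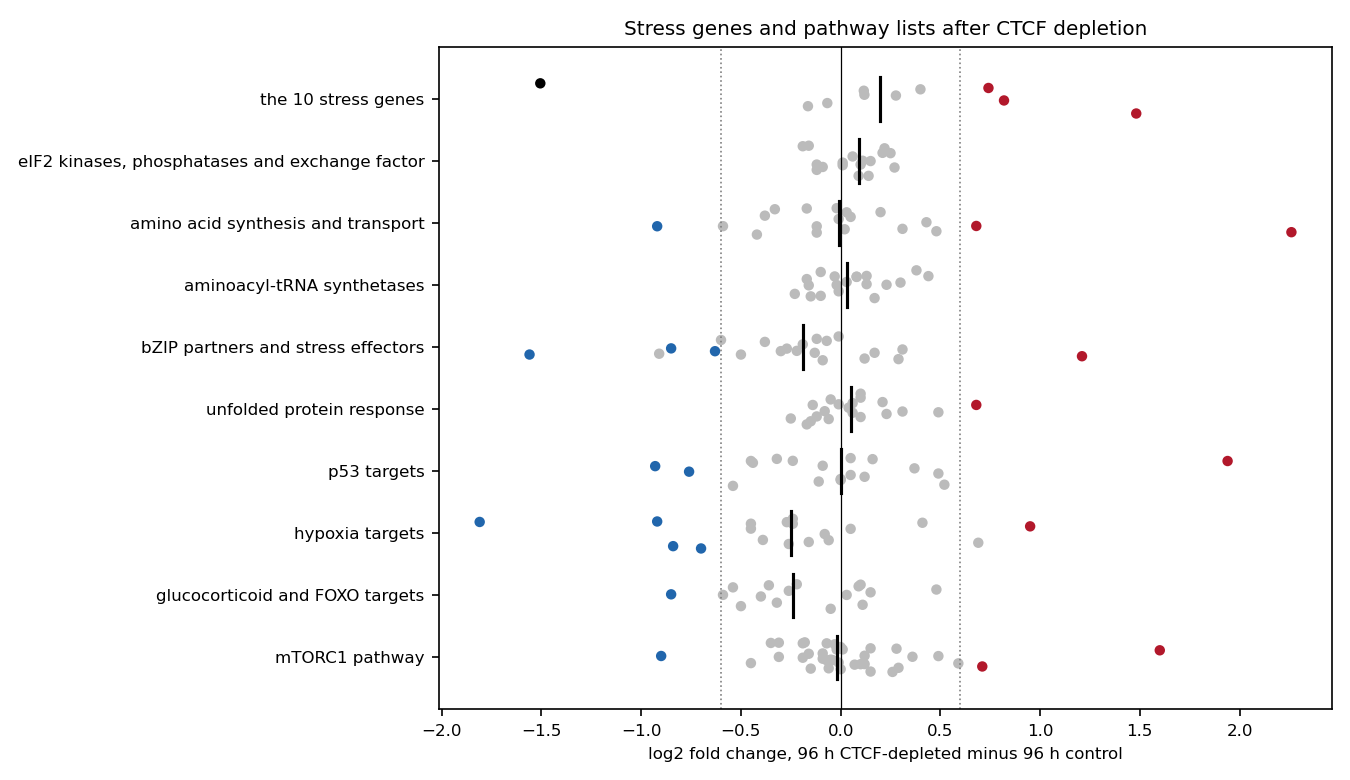
Log2 fold change of CTCF-depleted minus control cells at 96 h (horizontal axis) for the 10 stress genes and the tested genes of 9 pathway lists (rows; vertical scatter within a row has no meaning). Red and blue dots were called higher and lower, grey dots were not called, the black dot is DDIT4 and vertical bars are medians, which lie between -0.25 for hypoxia targets and 0.20 for the 10 genes.

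Of the 3 tested genes nearest to DDIT4 on chromosome 10, within 250 kb, 0 were called in either direction with CTCF depleted by edgeR or DESeq2, and at an unadjusted p below 0.05, 0 were lower and 1 was higher. Of the 7 other protein-coding genes reported here that start within 500 kb of the DDIT4 start, 6 were tested, 1 was called lower and 1 higher. Of all genes tested 7.03% were called lower and 5.41% higher, and with so few genes nothing is read from the counts in either window. ANAPC16 at -57.9 kb, a subunit of the anaphase-promoting complex, stood at 0.14 (adjusted p 0.161), and ASCC1 at -56.8 kb at 0.13 (adjusted p 0.315). DNAJB12 at 81.2 kb, a chaperone cofactor, was at 0.42 (adjusted p 1.44e-06), below the fold change threshold. MCU at 418 kb, the pore of the mitochondrial calcium channel, was called higher at 0.72 (adjusted p 7.7e-11, edgeR's quasi-likelihood test). CHST3 at -310 kb was at -1.46 (adjusted p 0.00419) with 26 and 28 counts in control and 10 and 9 in CTCF-depleted libraries. That call was lost in DESeq2 (adjusted p 0.136) and without any of the 4 libraries in turn, with adjusted p between 0.0315 and 0.069. PSAP at -423 kb, the precursor of the saposins, was at -0.06, and SPOCK2 at -185 kb was not tested.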

How the data were processed

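The data are 6 RNA-seq libraries of BLaER1-CTCF-mAID cells, with 3 groups of 2 replicates taken from the sample labels. The methods of the study describe the 2 replicates of a condition as biological. The count values were deposited by the authors as raw counts for each gene; reads had been processed with nf-core/rnaseq, aligned to hg38 with STAR 2.6.1d and counted over exons with featureCounts 2.0.6. The annotation release and strand setting are not given in the sources used here, and symbols were matched to GENCODE 44 and RefSeq (25 listed genes under an older symbol). Reads carried no molecular identifiers, so counting error is a lower limit.

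The fit used edgeR 4.0.16 under R 4.3.3 (filterByExpr, TMM, quasi-likelihood test, condition as the only term, all 6 libraries in 1 fit) and Benjamini-Hochberg adjustment over 14758 genes, which held 99.9% of the counts. Thresholds were an adjusted p below 0.01 and an absolute log2 fold change over 0.6, as in the methods of the study. Biological variation between replicates was 3.96%, and the chi-square per degree of freedom between replicates was 1.71 to 2.69, so no pair was 1 library deposited again. With 2 libraries in a group an exact permutation test cannot give a p below 0.333, so p-values come from the fit over all genes. Replicate numbers did not pair the libraries (correlations of -0.0294 to 0.0109).

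The 10 genes and the pathway lists were chosen with earlier results of these data known. Named genes were the 10, the list genes called with CTCF depleted, at most 4 in each direction, up to 4 others by the size of their change over the conversion, the 5 genes most like DDIT4 and the tested genes within 500 kb, except for a result that is not reported here; genes without a call that are set beside these were chosen after their values were seen. Alternatives were DESeq2 1.42.0, RLE size factors, no filter, at least 10 counts in every library, the 4 libraries compared alone, a replicate block, a looser threshold (adjusted p below 0.05, any fold), other windows and leaving out each library. Python 3.11.15, pandas 2.3.3, numpy 2.4.6 and matplotlib 3.10.9 made the summaries.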

Additional observations from a re-analysis of the deposited data

How the results depend on the processing

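The 10 genes gave 330 values under the alternatives, of which 319 kept their direction and their side of the thresholds, 6 lost their call, 4 gained one and 1 changed sign, SESN1 between CTCF-depleted and control cells, which was 0.00 without control replicate 1 (range over left-out libraries -0.07 to 0.00) and was never called. DDIT4 stayed between -1.53 and -1.41. With the threshold loosened to an adjusted p below 0.05 and any fold change, 3330 genes were lower and 2375 higher with CTCF depleted. Of the 10 genes 5 were then higher (ATF4 and ATF5 being added), and 58 pathway genes were lower and 34 higher. Against 0 h 5500 genes were lower and 5612 higher in control cells, and 5658 lower and 5784 higher in CTCF-depleted cells. The pathway genes lower and higher than at 0 h were 70 and 86 (control) and 78 and 75 (CTCF-depleted). Around DDIT4, 0 genes were called lower and 0 higher within 250 kb by edgeR (0 lower and 1 higher at an unadjusted p below 0.05, and 0 and 0 in DESeq2). Within 1000 kb 2 of the 16 tested genes reported here were called lower and 2 higher, beside 7.03% and 5.41% of all genes tested. With DESeq2, 721 genes were called lower and 560 higher with CTCF depleted, against 1038 and 798 in edgeR. With the replicate block the counts were 1033 and 785, and the block changed no call among the 10 genes. Low counts limit ATF3 and CHAC1, and 2 libraries per group limit every call.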
